A study of Mus musculus with 6 samples.

Results

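The Meis, Pbx and Pknox genes encode homeodomain proteins of the TALE class (3-amino-acid loop extension), which bind DNA next to Hox proteins and are known as Hox cofactors. They were measured in mouse embryonic stem cells (ESCs) and in their retinoic acid (RA) treated derivatives. The 8 genes Meis1, Meis2, Meis3, Pbx2, Pbx3, Pbx4, Pknox1 and Pknox2 were taken by name from a table of 22969 gene names. RNA-seq had been performed on 6 samples of the line E14Tg2a, a widely used mouse ESC line, at passage 37 to 40. The 3 ESC samples were kept with leukemia inhibitory factor (LIF), the cytokine that holds mouse ESCs in the undifferentiated state. The 3 samples labelled neuronal cells (NCs) were monolayers without LIF that received 1 µM RA for 48 h, so that LIF removal and RA treatment cannot be told apart. The deposited table gives 1 FPKM value (fragments mapped to a transcript, scaled to its length in kilobases and to the number of mapped fragments) per gene and condition, which is the authors' value over the 3 replicates. No spread between replicates could therefore be attached to any value, and no difference was tested. Both conditions come from 1 cell line, and in bulk RNA fewer cells using a gene and less RNA per cell cannot be told apart.

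Pbx proteins pair with many homeodomain proteins on DNA, among them Hox proteins of the anterior and central groups. Meis and Pknox (also called Prep) proteins bind Pbx through a conserved N-terminal region, which favours the nuclear location of Pbx, and the resulting dimers or trimers with a Hox protein read a longer DNA site than Hox alone. In the embryo these cofactors are needed in the hindbrain, limb, blood and face, and Meis1 and Meis2 are known as genes that respond to RA.

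The coding sequences show how closely the members of each class resemble one another. In the homeobox window of 63 codons, from the GENCODE M21 annotation on GRCm38, Meis1, Meis2 and Meis3 shared 82.0% to 84.7% of their bases with each other. The encoded residues were identical at 96.8% to 98.4% of positions. For Pbx2, Pbx3 and Pbx4 the base identity was 79.4% to 82.5% and the residue identity 88.9% to 96.8%. Pknox1 and Pknox2 matched at 78.3% of bases and 93.7% of residues. Between classes, Meis and Pknox were the closest, with 69.8% to 71.4% of residues identical, whereas Meis shared 42.9% to 44.4% with Pbx2 to Pbx4. Pknox shared 33.3% to 36.5% of residues with Pbx2 to Pbx4. A stretch of 60 bases near the 3′ end of the homeobox includes most of the recognition helix, the part of the homeodomain that contacts the bases of the DNA. It is printed for each gene to show that members of a class encode nearly the same helix with different letters. Capitals mark bases that differ from the first gene of the same class (Meis1, Pbx2 or Pknox1), and all 8 stretches are spliced across an exon junction.
Meis1: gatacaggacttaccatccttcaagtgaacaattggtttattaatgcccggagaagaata
Meis2: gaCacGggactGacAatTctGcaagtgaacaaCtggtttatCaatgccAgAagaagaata
Meis3: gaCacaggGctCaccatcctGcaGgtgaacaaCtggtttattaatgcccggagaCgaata
Pbx2: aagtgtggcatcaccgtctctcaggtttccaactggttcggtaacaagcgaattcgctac
Pbx3: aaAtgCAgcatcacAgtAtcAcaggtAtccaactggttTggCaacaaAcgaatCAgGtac
Pbx4: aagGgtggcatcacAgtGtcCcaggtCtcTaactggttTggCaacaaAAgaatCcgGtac
Pknox1: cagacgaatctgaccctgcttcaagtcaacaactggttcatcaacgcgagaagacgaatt
Pknox2: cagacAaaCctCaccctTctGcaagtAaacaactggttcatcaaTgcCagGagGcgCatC
Meis2 differed from Meis1 at 10 of the 60 bases and Meis3 at 7, and none of these changed a residue. Pbx3 differed from Pbx2 at 13 bases and Pbx4 at 12, with 1 residue changed in each. The 12 differences of Pknox2 from Pknox1 changed 0 residues. Across the window, no identical run between members was longer than 21 bases. No word of 50 bases in any transcript of 1 member occurred in a transcript of another member, so that a stretch of that length can be assigned to a single member.

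In NCs, 6 of the 8 genes were at least 2-fold higher than in ESCs and 0 were at least 2-fold lower (the plot of FPKM by condition). Among the 12785 gene names with a mean FPKM of at least 1, the same limit was passed upward by 1420, or 11.1%, and downward by 1270, or 9.93%. With both columns rescaled to the same sum these counts were 2094 and 864, whereas the members' counts stayed at 6 and 0. The median log2 ratio of NC to ESC over the 8 genes was 1.69, and that over all 12785 names was -0.04. All 8 members passed the filter on the mean, and 3 of them (Meis1, Meis2 and Pknox2) were below 1 FPKM in ESCs and passed through their NC value.

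**Figure D1:**
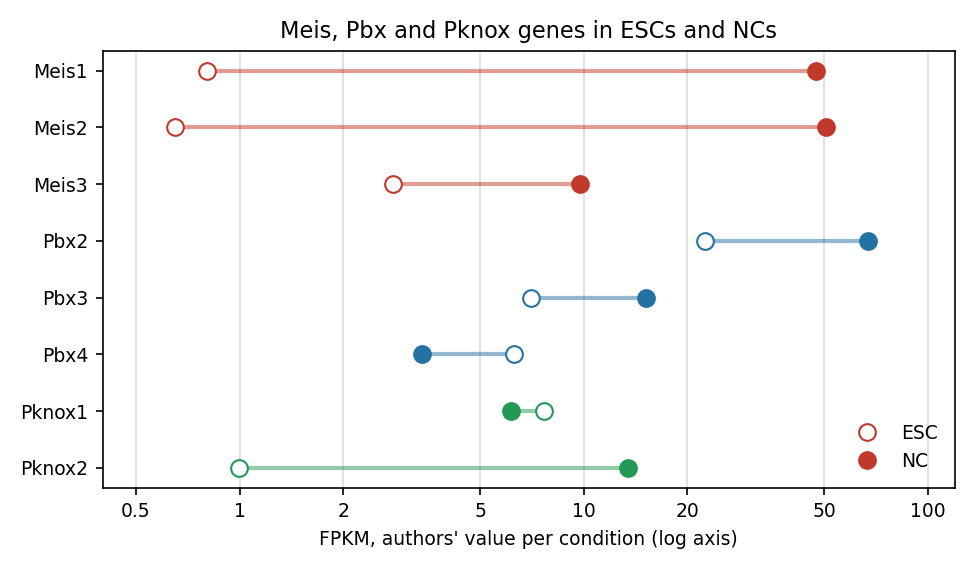
FPKM of the 8 genes in ESCs (open circles) and NCs (filled circles) on a log axis, 1 value per gene and condition, coloured by class (Meis red, Pbx blue, Pknox green). Meis1 and Meis2 span the longest distance, from under 1 to about 50 FPKM (47.4 and 50.7), while the filled circles of Pbx4 and Pknox1 lie left of the open ones.

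The largest ratios were those of Meis1 and Meis2. Meis proteins bring a DNA-binding homeodomain and a Pbx-binding region to the complex. Meis2 (chromosome 2, 115863064 to 116065839, minus strand), which is needed for cranial neural crest development, was at 0.649 FPKM in ESCs and 50.7 in NCs, 78.2-fold higher (log2 6.29). Meis1 (chromosome 11, 18879817 to 19018985, minus strand), best known from blood stem cells and leukaemia, was at 0.805 FPKM in ESCs and 47.4 in NCs, 58.9-fold higher (log2 5.88). Their ESC levels stood at percentiles 29.9 and 31.8 of the names above 0 FPKM, and their NC levels at 90.9 and 90.1. Their levels were close to each other in both conditions, with a Meis2 to Meis1 ratio of 0.807 in ESCs and 1.07 in NCs. Meis3 (chromosome 7, 16175090 to 16186504, plus strand), a gene with a role in hindbrain patterning, was at 2.79 FPKM in ESCs and 9.77 in NCs, 3.50-fold higher (log2 1.81). It was the highest Meis gene in ESCs, with 65.7% of the summed Meis FPKM, and the lowest in NCs, with 9.05%.

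The 3 Pbx genes of this set, whose products are among the partners that Meis, Pknox and Hox proteins share, differed in direction. Pbx2 (chromosome 17, 34591266 to 34597400, plus strand), a broadly expressed member, had the highest level of the 8 genes in both conditions, at 22.6 FPKM in ESCs and 67.0 in NCs, 2.97-fold higher (log2 1.57). Pbx3 (chromosome 2, 34171457 to 34373142, minus strand), which is required for the brainstem control of breathing, was at 7.01 FPKM in ESCs and 15.1 in NCs, 2.16-fold higher (log2 1.11) and thus the member nearest to the 2-fold limit on its upper side. Pbx4 (chromosome 8, 69832491 to 69872292, plus strand), known for its expression in testis, was at 6.29 FPKM in ESCs and 3.40 in NCs, 1.85-fold lower (log2 -0.89) and just inside the limit. The 2 genes were level in ESCs, with a Pbx3 to Pbx4 ratio of 1.11, and 4.45 apart in NCs.

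The Pknox genes, which bind Pbx as the Meis genes do, exchanged their order. Pknox1 (chromosome 17, 31564734 to 31607693, plus strand), a widely expressed gene essential for early development, was at 7.67 FPKM in ESCs and 6.17 in NCs, 1.24-fold lower (log2 -0.31). Pknox2 (chromosome 9, 36890982 to 37147407, minus strand), which has a more restricted expression, was at 0.999 FPKM in ESCs and 13.4 in NCs, 13.5-fold higher (log2 3.75). In ESCs the Pknox1 level was 7.68 times that of Pknox2, and in NCs the Pknox2 level was 2.18 times that of Pknox1. The direction of Pknox1 rests on a small difference: with both columns rescaled to the same sum, which adds 0.29 to every log2 ratio, its value was -0.02.

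**Figure D2:**
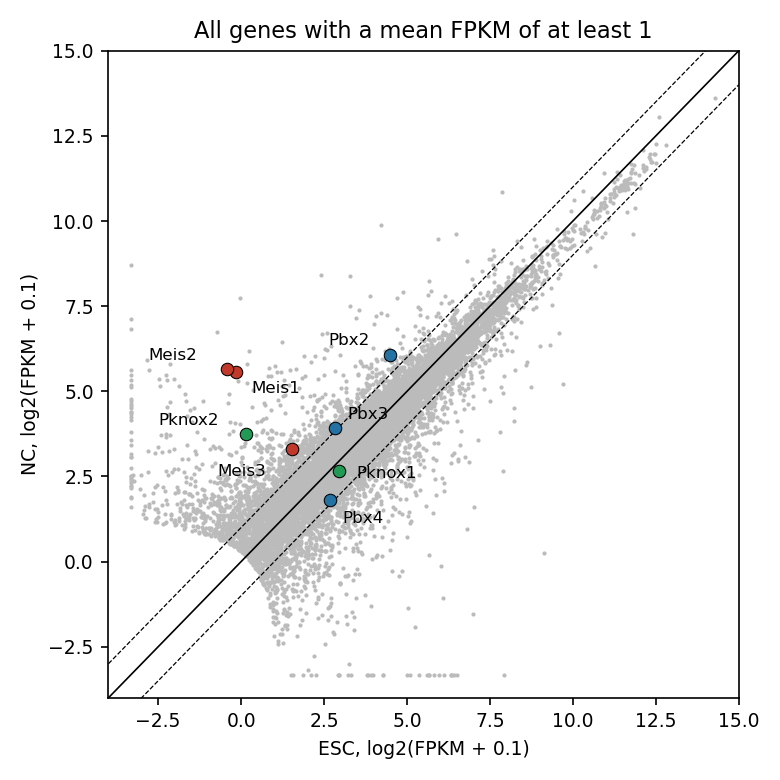
Level in NCs against level in ESCs, both as log2(FPKM + 0.1), for the 12785 gene names with a mean FPKM of at least 1 (grey), with the 8 genes coloured by class as before; the solid line marks equal levels, dashed lines a 2-fold difference, and points at the left or bottom edge are names listed at 0. Meis1, Meis2 and Pknox2 lie far above the upper dashed line and Pbx4 between the lower dashed line and the solid one.

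Set in order of FPKM, which is a level per length, the ESC values ran from Pbx2 through Pknox1, Pbx3, Pbx4, Meis3, Pknox2 and Meis1 to Meis2. The NC order was Pbx2, Meis2, Meis1, Pbx3, Pknox2, Meis3, Pknox1 and Pbx4. Without replicate values, whether neighbours in these orders differ beyond their spread is unknown. Only the counting error can be approached, from the smallest values of genes with 1 transcript. These lay mostly on 2 step sizes, at 0.0120 and 0.0138 FPKM per 1 kb of transcript in ESCs and at 0.00715 and 0.0136 in NCs. With the larger step taken as 1 fragment, which gives the lowest number of fragments, the ESC values of Meis1 and Meis2 correspond to roughly 241 and 134 fragments over all replicates, with a counting error of 6.44% and 8.65%. The counting error of the other values lay between 0.833% for Meis1 in NCs and 6.54% for Pknox2 in ESCs. These figures cover counting error only and say nothing of the variation between cultures.

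Summed by class, the Meis genes had the smallest share of the 8 genes' FPKM in ESCs and the largest in NCs (the stacked plot of class sums). Meis1 to Meis3 together had 4.24 FPKM in ESCs and 107.9 in NCs, 25.4-fold more, and made up 8.70% and 50.7% of the 8 genes' sum. The Pbx2 to Pbx4 sum was 35.9 FPKM in ESCs and 85.5 in NCs, 2.38-fold more, with shares of 73.5% and 40.1%. This sum covers these 3 genes only and does not stand for all Pbx transcripts. The order of the sums and the ratios between them therefore hold for the 8 genes and not for whole classes. The Pknox sum was 8.67 FPKM in ESCs and 19.6 in NCs, 2.26-fold more, with shares of 17.8% and 9.21%. The ratio of Pbx2 to Pbx4 over Pknox was therefore near 4 in both conditions (4.14 and 4.36), while that of Meis over Pknox was 0.490 in ESCs and 5.50 in NCs. FPKM measures transcripts, and the amount of each protein was not measured here.

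**Figure D3:**
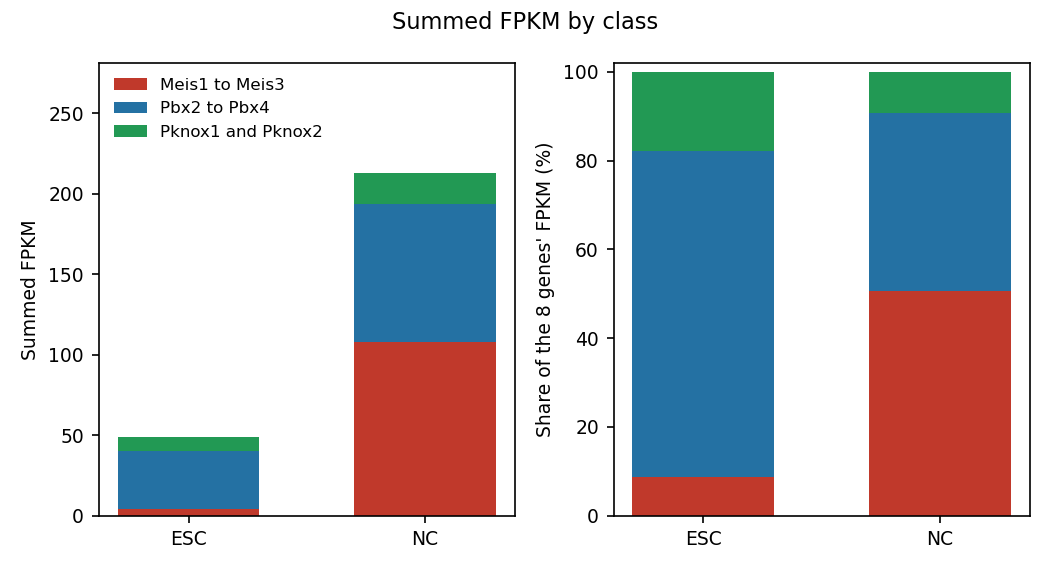
Summed FPKM of Meis1 to Meis3 (red), Pbx2 to Pbx4 (blue) and Pknox1 with Pknox2 (green) in ESCs and NCs, as FPKM on the left and as percent of the 8 genes' sum on the right, 1 value per condition. The total was 48.8 FPKM in ESCs and 213 in NCs, and the red part makes up 8.70% and 50.7% of it.

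The Hox genes, whose products these cofactors accompany on DNA, were low in ESCs, most of them below 1 FPKM. Of 39 Hox genes listed, 2 reached 1 FPKM in ESCs and 28 in NCs. Of the 26 that passed the filter on the mean, 25 were at least 2-fold higher in NCs, 0 were 2-fold lower and 1, Hoxc13, was within 2-fold at 1.43 and 0.986 FPKM. Of all 12785 names passing it, 11.1% were at least 2-fold higher and 9.93% at least 2-fold lower. Apart from the 2 at 1 FPKM in ESCs, these Hox genes passed only through their NC value. At their ESC levels a pass already required a 2-fold ratio, so the count was largely fixed by the filter. The median log2 ratio of the 26 was 7.004. The largest ratios among those read above the floor of 3 fragments in ESCs were those of Hoxb6, at 0.0403 FPKM in ESCs and 60.3 in NCs, and Hoxb5, at 0.0465 and 49.5. Their ESC values correspond to roughly 4.2 and 5.7 fragments, with counting errors of 48.7% and 41.8%, so the size of these ratios is uncertain. Hoxd3 lay below that floor in ESCs and reached 5.76 FPKM in NCs, at least 308-fold higher when set against the floor. After Hoxc13, the smallest ratios were those of Hoxb13, at 0.436 and 1.57 FPKM, and Hoxa7, at 0.0670 and 2.14.

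Hox proteins of the anterior and central paralog groups bind DNA with Pbx, and posterior ones can bind with Meis. The split below is by group number and does not divide the genes by cofactor. The 23 genes of groups 1 to 8 were all at 1 FPKM or more in NCs, against 1 of them in ESCs, and their summed level was 3.88 FPKM in ESCs and 648 in NCs. Of the 16 genes of groups 9 to 13, 5 reached 1 FPKM in NCs, and the sum was 3.37 FPKM in ESCs and 33.4 in NCs. Set against the 8 cofactor genes, the summed Hox FPKM was 0.148 times theirs in ESCs and 3.20 times theirs in NCs. These 8 do not include all Pbx transcripts, so the ratios hold for this set only.

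The list of 10 other TALE homeobox genes included the Irx genes, which pattern the neural plate and heart, and the Tgif repressors. Of 7 that passed the filter, 4 were at least 2-fold higher in NCs, 0 were 2-fold lower and 3 were within 2-fold, with a median log2 ratio of 1.36. Of all names passing the filter, 11.1% were at least 2-fold higher and 9.93% at least 2-fold lower. Irx3 was at 0.835 FPKM in ESCs and 39.4 in NCs. Irx5 was at 0.317 and 6.52 FPKM, and Irx2 at 1.64 and 4.21. Irx3 and Irx5 were below 1 FPKM in ESCs and passed the filter through their NC value, which for Irx5 alone fixed a ratio above 2. Irx1, at 0.153 and 1.79 FPKM, and Irx4, at 0.232 and 0.937, did not reach the mean of 1. Irx6 was below the floor in ESCs and at 0.249 FPKM in NCs. Tgif1, a repressor that can bind the DNA sites of retinoid X receptors, was at 116.7 FPKM in ESCs and 63.8 in NCs, Tgif2 at 20.3 and 22.9, and Mkx, a tendon regulator, at 1.54 and 1.23.

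The 6 listed proteins that bind Pbx or Pknox or move them between cytoplasm and nucleus were mostly within the 2-fold limit, with a median log2 ratio of -0.21. So were most genes, 10095 of the 12785 names passing the filter. The limit was passed upward by 1 and downward by 0, against 11.1% and 9.93% of those names. The 1 was Myh10, a nonmuscle myosin heavy chain that can hold Pbx in the cytoplasm, at 37.6 FPKM in ESCs and 120.7 in NCs. Myh9, its paralog, was at 49.6 and 32.8 FPKM. Pbxip1, a Pbx-interacting protein that inhibits its DNA binding, was at 4.003 and 6.35 FPKM, and the zinc finger gene Zfp462 at 14.1 and 11.8. Mybbp1a, a nucleolar protein that competes with Pbx for Pknox1, was at 202 and 135 FPKM, and the nuclear export receptor Xpo1 at 114.9 and 101.6. Among 7 other homeodomain partners of Pbx, 2 passed the filter, Cdx1 at 0.598 and 3.58 FPKM and En2 at 1.31 and 1.22.

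**Figure D4:**
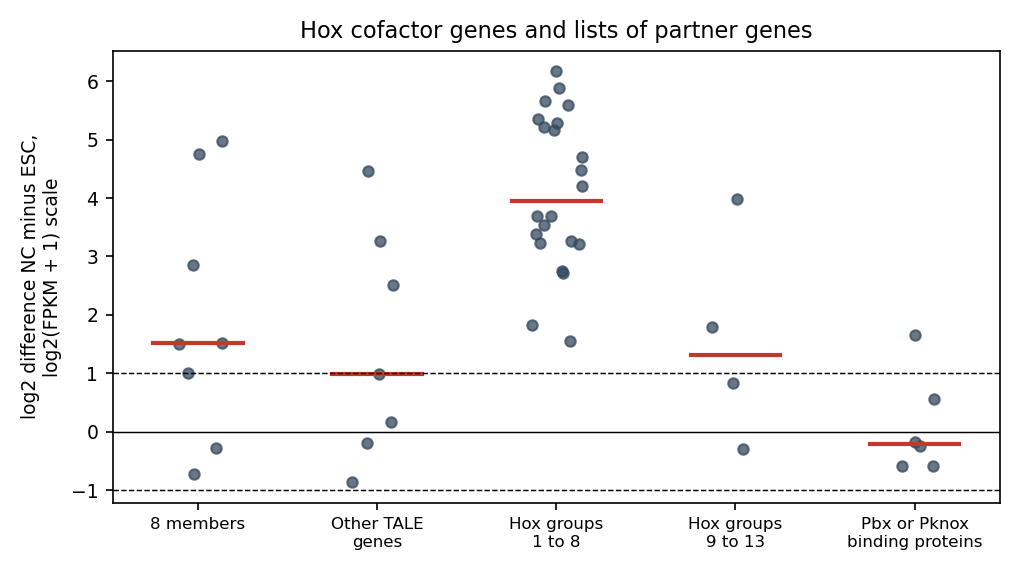
Difference NC minus ESC on the log2(FPKM + 1) scale for the 8 genes and for the listed genes with a mean FPKM of at least 1, 1 point per gene, with the list median as a red bar and dashed lines at a 2-fold difference. The 22 points of Hox groups 1 to 8 all lie above the upper dashed line, the 8 cofactor genes spread from below 0 to about 5 (4.97 for Meis2), and 5 of the 6 binding proteins lie between the dashed lines. Most of the Hox genes shown were low in ESCs and passed the filter through their NC value, which largely fixed their place above the line.

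Outside the members, the gene whose pair of levels was nearest to that of Meis2 was Zfp703, at 0.794 FPKM in ESCs and 49.6 in NCs. Its distance was 0.126 on the log2(FPKM + 1) scale over the 2 conditions. Cyp1b1, at 1.03 and 55.4 FPKM, followed at 0.326, and 3 genes in all lay within 0.5 of Meis2. They included Irx3 from the list of other TALE genes, at 0.835 and 39.4 FPKM. The lowest ratio, that of Pbx4, had many more near neighbours: Kifc3 lay at 0.0358 and 1810019J16Rik at 0.0412 from it, and 451 genes within 0.5. With 2 conditions such likeness is a description of levels.

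Promoter sequences of RefSeq (GRCm38.p6) were at hand for 5 of the 8 genes, Meis1, Meis2, Meis3, Pbx2 and Pbx4. Those of Meis1 (chr11:19018970-19019219, minus strand), which lies among the lowest members in ESCs, and Pbx2 (chr17:34592009-34592258, plus strand), the highest in both conditions, are shown as the 250 bases upstream of the start that RefSeq annotates, with CpG dinucleotides in capitals. RefSeq and GENCODE starts differ: the Pbx2, Meis2 and Meis3 windows lie inside the GENCODE gene spans given above, and those of Meis1 and Pbx4 lie partly inside them.
Meis1: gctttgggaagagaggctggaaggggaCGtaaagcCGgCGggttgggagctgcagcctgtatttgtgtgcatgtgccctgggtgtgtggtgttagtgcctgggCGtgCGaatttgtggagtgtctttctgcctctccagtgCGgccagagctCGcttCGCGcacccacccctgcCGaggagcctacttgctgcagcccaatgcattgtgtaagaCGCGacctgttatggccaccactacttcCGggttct
Pbx2: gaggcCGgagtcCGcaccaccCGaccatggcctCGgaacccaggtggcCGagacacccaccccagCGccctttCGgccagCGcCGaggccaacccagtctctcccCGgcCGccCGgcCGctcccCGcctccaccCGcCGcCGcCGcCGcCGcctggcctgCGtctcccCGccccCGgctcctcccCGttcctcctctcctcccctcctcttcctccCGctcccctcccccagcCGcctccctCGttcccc
The Meis1 window held 13 CpG and the Pbx2 window 27, a number reached by 31.5% and 8.56% of 32851 mouse promoters of the same length, whose median was 6. Meis3 and Pbx4 had 12 each and Meis2 had 7. On both strands the 5 windows were searched for AGGTCA, the half-site of RA receptors, for its direct repeats spaced by 5 or 2 bases (DR5 and DR2), for TGACAG, the Meis and Pknox core, and for TGATNNAT, a Pbx-Hox site. The repeats contain the single AGGTCA, so these searches overlap. Of the 5 windows, 0 held any of them, where 14.0% of all promoters held AGGTCA, 15.9% TGACAG, 7.68% TGATNNAT and 0.00913% each of the repeats. The result says only that these letters are not in these windows.

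Some members share sequence with neighbouring genes. Pbx2 overlaps Gpsm3 on the same strand, and 5.16% of its words of 50 bases also occur in Gpsm3, which was at 4.66 FPKM in ESCs and 3.47 in NCs. Meis1 shared 12.9% of its words with other annotated genes, nearly all of them (981 of 994) with the overlapping unclassified transcript Gm37818 on its own strand, and Pknox1 shared 2.18% with the antisense gene AC166172.4. Since the strand setting of the libraries is not given in the sources used here, reads from that shared stretch cannot be assigned to 1 of the 2 genes. Antisense genes also overlap the spans of Meis1, Pbx3 and Pknox2, but with either strand searched Pbx3 and Pknox2 shared 0 words with any other gene, as did Meis3 and Pbx4. Meis2 shared 14 of its 4302 words, 0.325%, and these occurred in 541 other genes.

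The condition labels were set against marker genes. Of all names passing the filter, 11.1% were at least 2-fold higher in NCs and 9.93% at least 2-fold lower. All 5 pluripotency markers were at least 2-fold lower in NCs, with Pou5f1 at 832 FPKM in ESCs and 37.1 in NCs, and all 5 RA response genes were at least 2-fold higher, with Rarb at 0.128 and 25.5. Of 7 neural markers passing the filter, the progenitor genes Sox1 and Pax6 were at least 2-fold higher, while Tubb3, Elavl3 and Neurod1 were at least 2-fold lower. Nes, at 12.9 FPKM in ESCs and 18.3 in NCs, and Map2, at 3.18 and 2.35, were within 2-fold. Neurog1 did not reach the mean of 1 and was higher in NCs, at 0.0958 and 0.710 FPKM. The neural markers thus differed in direction, and the cells labelled NCs did not have more transcripts of Tubb3, Elavl3 and Neurod1 at 48 h. Extraembryonic endoderm markers were also higher in NCs, with 5 of 6 at least 2-fold higher and a sum of 16.9 FPKM in ESCs and 39.3 in NCs, and their part in the results was not tested. None of them was at 0 in either condition. The 5 mesoderm markers did not exceed 1.25 FPKM in ESCs and 0.808 in NCs, and of the 4 trophoblast markers Tfap2c was at 34.0 and 4.59 FPKM, while the other 3 (Cdx2, Elf5 and Hand1) were below 1 FPKM in both conditions.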

How the data were processed

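RNA had been sequenced from 3 ESC and 3 NC samples. The authors used TopHat2 (version 2.0.8) on top of Bowtie2 (version 2.1.0) to place reads on mm10, then Cufflinks (version 2.0.2), Cuffmerge and Cuffdiff (version not given in the sources used here). The deposited table holds 1 FPKM value per gene and condition; the NC column is headed FPK and was taken as FPKM. Its columns with the authors' fold changes, test statistics, p-values and q-values were not used. Rows of 1 name were summed. Ratios of NC to ESC were taken without a pseudocount and counted at 2-fold among names with a mean FPKM of at least 1. No test was run, because the values are pooled over replicates and depth per sample is unknown. The scale of 1 fragment was read from the lowest FPKM values, assuming fragments of 200 bases; 68.7% (ESC) and 71.1% (NC) of them lay within 5% of 1 of 2 step sizes. Members and gene lists were chosen with earlier results of these data known. Named were all 8 members, the 3 largest and 3 smallest ratios of each list, its TALE genes, and the nearest 2 genes of the members with the highest and lowest ratio; a few further genes that these rules cover are not reported here, although they enter the counts, and others are named as examples of a count or marker list. Coordinates are those of GENCODE M21 (GRCm38, the same assembly as mm10). Alternatives were other pseudocounts, filters, fold limits and scalings, and the row with the largest mean in place of the sum over rows of 1 name. Python 3.11.15, pandas 2.3.3 and Biopython 1.88 were used.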

Additional observations from a re-analysis of the deposited data

How the results depend on the processing

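Of 56 alternative values, 50 were classed as unchanged, and 0 ratios reversed. For a ratio this meant the same direction, the same side of the 2-fold limit and a size within 1.5-fold. For a count of members it meant an equal count or one within 1.5-fold. Part of this was fixed in advance. Centring and rescaling add a constant too small to break the 1.5-fold rule. Looser filters cannot alter counts when all 8 members already pass, and a limit of 4 cannot raise a count of 0. The tally is therefore no measure of robustness. Taking the largest row per name gave the same value for all 8 members, which have 1 row each, and is not counted among the 56. With a pseudocount of 1 the log2 ratios were 4.75 for Meis1, 4.97 for Meis2 and 2.85 for Pknox2. At a fold limit of 1.5, 1 member (Pbx4) was lower in NCs, against 18.8% of all genes, and at a limit of 4, 3 members were higher, against 4.21%. Where 1 FPKM was required in both conditions, 5 members passed and 3 were higher, against 7.45% of all genes, since Meis1, Meis2 and Pknox2 were removed. Centring on the median log2 ratio of names at 1 FPKM or more in both conditions (-0.05) and rescaling to equal sums (a shift of 0.29) left the counts of members at 6 and 0. No paired analysis was possible because the table has 1 pooled value per condition, and for the same reason no replicate could be left out. The spread between cultures is unknown, and the counting errors given do not cover it.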
